A study of Mus musculus with 16 samples.

Results

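The difference between Klrk1-/- and WT mice was measured across all genes in the livers of mice fed a steatosis and steatohepatitis diet (SSD). The libraries were chosen by their labels, 3 from Klrk1-/- mice and 5 from WT mice, which are 8 of the 16 libraries of the study. Each library is RNA of whole liver from 1 mouse, so an animal stands behind every value. WT mice were C57BL/6J, and the Klrk1-/- mice, whose titles read NKG2D-, carry the deletion in the whole body. According to the methods, the mice were male and 8 to 12 weeks old, and the SSD was rich in animal fat, fructose and cholesterol. By the study's results section, the SSD was given for 3 weeks. Another 4 WT and 4 Klrk1-/- mice on a normal chow diet (NCD) gave the same genotype difference without the SSD. The sources used here do not say whether these WT and Klrk1-/- mice were littermates, so the deletion and any other difference between 2 colonies cannot be told apart.

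Klrk1 encodes NKG2D, an activating receptor carried by natural killer (NK) cells, γδ T cells and other innate-like T cells. It signals through the adaptors DAP10 (Hcst) and, in mice, DAP12 (Tyrobp), and it recognises stress-induced surface proteins of the RAE-1, H60 and MULT1 families. In fatty liver, hepatocytes that store lipid can be damaged and replaced by division, while Kupffer cells and recruited monocytes take up lipid and debris.

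Between 22458502 and 28936707 reads per SSD-fed mouse fell on genes. Values below are normalized counts, the reads of a mouse divided by 1 factor, and log2 fold changes are Klrk1-/- minus WT on the log2(normalized count + 1) scale, which understates changes of genes with few reads. WT mouse 1 stood apart from the other WT mice. Its read counts differed from theirs by a chi-square of 73.2 to 100.8 per gene, whereas the other WT pairs differed by 18.8 to 36.1 and the Klrk1-/- pairs by 17.2 to 33.9. It had the highest WT value in 86 of the 127 genes that were lower in Klrk1-/- mice, and WT mouse 5 had the lowest in 68. Mitochondrial genes took 6.9 to 7.94% of the reads in WT and 7.66 to 9.06% in Klrk1-/- mice. In bulk liver RNA, fewer cells of a type and less RNA per cell cannot be told apart.

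Most of the genes that differed clearly were lower in the livers of Klrk1-/- mice. By limma's trend test, 151 of 13116 genes tested (1.15%) were called, at an adjusted p under 0.05 and more than 2-fold. Of these, 127 (0.968%) were lower and 24 (0.183%) higher in Klrk1-/- mice, and the 2 groups overlapped in none of the 151, while they did not overlap in 17.9% of all genes tested. Over all genes tested, log2 fold changes had a median of -0.001. Without a fold limit, 221 genes (1.68%) were lower and 160 (1.22%) higher, so the imbalance was smaller than with the fold limit. The sizes differed too, with a median log2 fold change of -1.94 among the lower and 1.27 among the higher genes. Scaling all mice to the same total gave 17 higher and 169 lower genes and moved the median of all genes to -0.11.

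Of the 151 calls, 29 held when each of the 8 mice was left out in turn. The 20 lower ones included Klrk1 itself, Noct, Cep85, Paox, Orm2, Areg, Tnfrsf23, Tdg, Slc10a2, Mrgpre, Sprr1a, Atf3, Chac1, Tcim, Hspa1a, Cidec, Dhcr7, Rad51ap1 and Mcm5. The 9 higher ones were Rilpl1, Gdpd3, Alad, Tymp, Sco2, Gm20075, Dab1, Hal and Id2. Each called gene given below that is not among the 29 lost its call without at least 1 mouse. The count of calls fell to 35 without Klrk1-/- mouse 1, 57 without Klrk1-/- mouse 2 and 43 without Klrk1-/- mouse 3. Among the fits without 1 WT mouse it was 76 without mouse 2, 82 without mouse 3 and 98 without mouse 4, and it rose to 206 without mouse 1 and 251 without mouse 5.

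**Figure D1:**
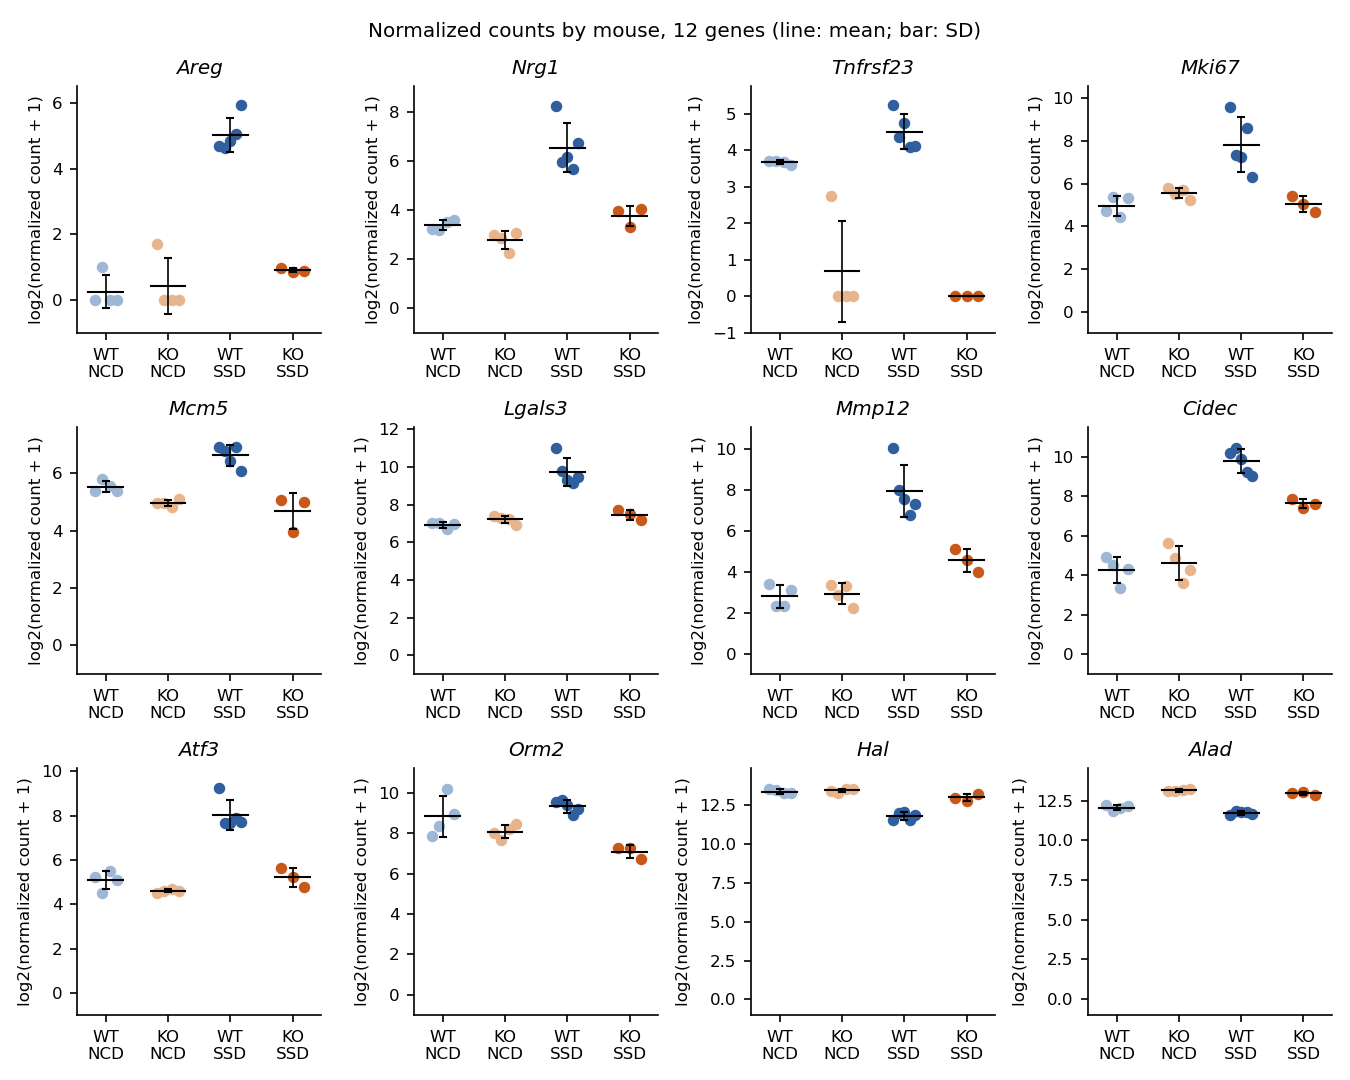
Each panel plots log2(normalized count + 1) of 1 gene in every mouse (points) with the mean (line) and SD (bar) of the WT and Klrk1-/- (KO) mice on NCD and SSD. In all 12 genes the 5 WT and 3 Klrk1-/- mice on SSD lie apart, lower in Klrk1-/- mice for 10 genes and higher for Hal and Alad.

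The receptor, its adaptors and its ligands were described first. Klrk1 on chromosome 6 was at 57.8, 32.9, 34.3, 71.1 and 34.3 normalized counts in the WT mice and at 0.966, 1.61 and 4.29 in the Klrk1-/- mice, 8 reads in all (log2 fold change -3.9 ± 0.41 (SE), adjusted p = 0.00165). The 5 other tested members of the NKG2D list all had log2 fold changes below 0 and none passed an adjusted p of 0.05. These were the adaptors Hcst (log2 -1.0, adjusted p = 0.186) and Tyrobp (log2 -0.56, adjusted p = 0.36) and the ligand genes Raet1d (log2 -1.0, adjusted p = 0.3), Raet1e (log2 -0.45, adjusted p = 0.569) and Ulbp1 (log2 -0.87, adjusted p = 0.151). Ulbp1, which encodes MULT1, read 26.6, 15.2, 15.2, 23.1 and 14.7 in WT and 7.73, 9.64 and 12 in Klrk1-/- mice. Among all genes tested, 50.2% were below 0.

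Of the ligands of the epidermal growth factor (EGF) receptor family, Areg and Nrg1 were lower in Klrk1-/- mice and the other tested ligands did not pass the test. Areg, the gene of amphiregulin, a ligand that epithelial and immune cells release after injury, was at 24.6, 23.7, 27.6, 32 and 59.6 normalized counts in the WT mice. All 3 Klrk1-/- mice had a single read each, 0.966, 0.803 and 0.857 (log2 fold change -4.11 ± 0.38 (SE), adjusted p = 0.000735). With 203 reads over the WT and 3 over the Klrk1-/- mice, the ratio of WT to Klrk1-/- was 38.3 (95% interval 12.9 to 187.3, exact binomial, counting error only). On NCD, Areg was near 0 in both genotypes, and its genotype difference was larger on SSD (interaction log2 -4.29, adjusted p = 0.0172). Nrg1, a neuregulin that binds the related receptors ErbB3 and ErbB4, read 300.3, 61.7, 71.4, 49.7 and 105 in WT and 14.5, 8.83 and 15.4 in Klrk1-/- mice (log2 fold change -2.79 ± 0.50 (SE), adjusted p = 0.0221). WT mouse 1 was highest in Nrg1, and the adjusted p was 0.00172 without it but 0.0935, 0.102 and 0.0786 without Klrk1-/- mouse 1, 2 and 3. Errfi1, an inhibitor of the EGF receptor induced by its signalling, was lower at 17006, 19972, 20857, 19804 and 23990.0 against 5961, 15756 and 8996 (log2 fold change -1.1 ± 0.25 (SE), adjusted p = 0.0492), although Klrk1-/- mouse 2 came close to the WT mice. WT mouse 5 was the highest in Areg, and no WT mouse came near the Klrk1-/- values. The ligands that did not pass were Ereg (log2 -1.15, adjusted p = 0.279), Btc (log2 -1.07, adjusted p = 0.0609), Nrg4 (log2 -0.49, adjusted p = 0.204), Tgfa (log2 -0.19, adjusted p = 0.318), Hbegf (log2 0.48, adjusted p = 0.526) and Egf (log2 0.18, adjusted p = 0.753). The receptors Egfr (log2 0.21, adjusted p = 0.786), Erbb2 (log2 0.35, adjusted p = 0.497), Erbb3 (log2 0.29, adjusted p = 0.268) and Erbb4 (log2 -0.53, adjusted p = 0.401) did not pass the test. Of the 15 tested genes of the list for EGF receptor family and ligands, 4 were lower and 0 higher at an adjusted p under 0.05. Among all genes 1.68% were lower and 1.22% higher, and the median log2 fold change of the list was -0.40. The 4 were Areg, Nrg1, Errfi1 and Adam17, the protease that releases such ligands (log2 -0.40, adjusted p = 0.0453). Leaving out 1 mouse moved the count of lower genes between 1 (without Klrk1-/- mouse 1 or 3) and 5 (without WT mouse 1). Of all genes, 0.228% were lower without Klrk1-/- mouse 1, 0.289% without Klrk1-/- mouse 3 and 3.26% without WT mouse 1.

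Tnfrsf23 and Tnfrsf26, neighbours of the TNF receptor family with few reads, were lower in Klrk1-/- mice. Tnfrsf23, which encodes a decoy receptor for the death ligand TRAIL (chromosome 7 of GRCm39, 143219546 to 143239609), was at 36.5, 19.4, 25.7, 16 and 16.3 in WT mice and had no read in any Klrk1-/- mouse. Against a floor of 3 reads per library it was at least 8.68-fold lower (adjusted p = 0.000921). Tnfrsf26 lies 37087 bases away (chromosome 7 of GRCm39, 143161396 to 143182459) and read 27.2, 16.9, 14.3, 22.2 and 21.2 in WT and 1.93, 4.02 and 0 in Klrk1-/- mice (log2 fold change -3.09 ± 0.52 (SE), adjusted p = 0.0185). The next called gene on that stretch of chromosome 7 was Mrgpre, a Mas-related G protein-coupled receptor gene, at 63.1, 46.5, 55.2, 56 and 53.9 against 1.93, 9.64 and 3.43 (log2 fold change -3.43 ± 0.38 (SE), adjusted p = 0.0021). Dhcr7 follows 38645 bases further on and is described with cholesterol synthesis. Their relative Tnfrsf22 did not pass (log2 -0.91, adjusted p = 0.288), and reads can be split between such similar genes. The list for TNF and death receptor family had 17 tested genes with a median log2 fold change of -0.36. Tnfrsf23 and Tnfrsf26 were the 2 lower at an adjusted p under 0.05, with 0 higher (1.68% and 1.22% of all genes). The lower count ran from 1 without Klrk1-/- mouse 1 to 3 without WT mouse 1.

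Genes of mitosis had the lowest median of all 31 gene lists, and 9 of 38 were lower in Klrk1-/- livers at an adjusted p under 0.05. Mki67, the gene of the proliferation marker Ki-67, was at 788, 162, 154, 387 and 79.2 normalized counts in the WT mice and 42.5, 32.1 and 24.9 in the Klrk1-/- mice (log2 fold change -2.77 ± 0.61 (SE), adjusted p = 0.041). Top2a, which untangles DNA for chromosome separation, read 296, 138, 127, 243 and 59.6 and 27, 29.7 and 17.1 (log2 fold change -2.59 ± 0.45 (SE), adjusted p = 0.0188). Ccnb1 encodes cyclin B1, the partner of the kinase that starts mitosis, and was at 175, 51.5, 28.6, 110.2 and 15.5 against 8.69, 4.02 and 3.43 (log2 fold change -3.2 ± 0.69 (SE), adjusted p = 0.0398). In these 3 genes WT mouse 1 was highest, WT mouse 4 second and WT mouse 5 lowest, and the Klrk1-/- mice were all below WT mouse 5. The checkpoint kinases Bub1 (log2 fold change -3.23 ± 0.56 (SE), adjusted p = 0.0192) and Ttk (log2 fold change -3.85 ± 0.77 (SE), adjusted p = 0.031), the chromosome segregation kinase Aurkb (log2 fold change -3.08 ± 0.54 (SE), adjusted p = 0.0202), the spindle genes Tpx2 (log2 fold change -3.03 ± 0.69 (SE), adjusted p = 0.0461) and Kif11 (log2 fold change -1.68 ± 0.36 (SE), adjusted p = 0.0398) and the ubiquitin-conjugating enzyme Ube2c (log2 fold change -2.73 ± 0.63 (SE), adjusted p = 0.0495) were lower as well.

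The median log2 fold change of the 38 mitosis genes was -2.41, with none higher. All 38 had log2 fold changes below 0, from -3.85 in Ttk to -0.40 in Cenpa, a range that lies below the median of all genes tested. The number past the threshold depended on the mice. Without single mice, 0 (Klrk1-/- mouse 1 or 3 left out) to 34 (WT mouse 5 left out) were lower. It was 3 without WT mouse 2, 3 or 4, 17 without WT mouse 1, 5 with edgeR and 37 with DESeq2. The share of all genes lower at that threshold moved too, from 1.68% with all 8 mice to 0.228% without Klrk1-/- mouse 1, 0.289% without Klrk1-/- mouse 3, 2.63% without WT mouse 5, 3.26% without WT mouse 1, 1.3% with edgeR and 5.23% with DESeq2. The median of the list stayed between -2.76 and -1.99 when single mice were left out. On NCD 25 of the 38 were tested with a median of 0.295, and none was lower or higher at an adjusted p under 0.05, with 6.66% lower and 6.41% higher among all genes on NCD. The genotype difference was more negative on SSD than on NCD for Ccnb1 (interaction log2 -4.61, adjusted p = 0.0303), Mki67 (-3.36, 0.0277) and Top2a (-2.37, 0.0452). Among the 12 largest falls, genes on no list also act in division, such as the spindle protein gene Ckap2l at 184, 46.5, 41.9, 93.3 and 13.1 against 6.76, 2.41 and 2.57 (log2 fold change -3.59 ± 0.70 (SE), adjusted p = 0.0285) and the DNA helicase gene Pif1 at 59.8, 13.5, 19, 36.4 and 8.16 against 1.93, 3.21 and 0 (log2 fold change -3.3 ± 0.68 (SE), adjusted p = 0.0348).

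DNA replication genes differed less evenly. Mcm5 encodes a subunit of the MCM helicase that opens DNA at replication origins and was at 119.6, 107, 84.7, 119.9 and 66.9 in WT and 32.8, 14.5 and 30.9 in Klrk1-/- mice (log2 fold change -1.95 ± 0.29 (SE), adjusted p = 0.0114). Klrk1-/- mouse 2 was lowest, and the groups did not overlap. Its partners Mcm6 (log2 fold change -1.25 ± 0.21 (SE), adjusted p = 0.016) and Mcm3 (log2 fold change -1.01 ± 0.18 (SE), adjusted p = 0.0214) were lower too, whereas Mcm7 (log2 0.10, adjusted p = 0.628) was not. Uhrf1, which copies DNA methylation onto new strands, read 60.4, 32.9, 39, 46.2 and 22.9 and 12.6, 5.62 and 11.1 (log2 fold change -1.93 ± 0.36 (SE), adjusted p = 0.024). For DNA replication, 7 of 33 tested genes were lower and 0 higher at an adjusted p under 0.05, with a median log2 fold change of -0.44. Leaving out 1 mouse moved the count of lower genes between 1 (without Klrk1-/- mouse 1, 2 or 3) and 11 (without WT mouse 5). Of all genes, 0.228% were lower without Klrk1-/- mouse 1 and 2.63% without WT mouse 5. Rad51ap1, a recombination repair gene, was at 22.6, 23.7, 15.2, 22.2 and 16.3 in WT mice and 2.90, 1.61 and 0 in Klrk1-/- mice (log2 fold change -3.26 ± 0.48 (SE), adjusted p = 0.0108).

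The promoters of the mitosis and replication genes that were lower are shown for the 2 with the largest falls whose promoter held both motifs searched. RefSeq promoters of the build GRCm38.p6, an older build than that of the files, span 250 bases before to 50 after the gene start. Capitals mark TTTGAA, the letters of the cell cycle homology region core, and CCAAT, each on either strand (TTCAAA and ATTGG on the other).
Ttk promoter, chr9:83834439-83834738, + strand: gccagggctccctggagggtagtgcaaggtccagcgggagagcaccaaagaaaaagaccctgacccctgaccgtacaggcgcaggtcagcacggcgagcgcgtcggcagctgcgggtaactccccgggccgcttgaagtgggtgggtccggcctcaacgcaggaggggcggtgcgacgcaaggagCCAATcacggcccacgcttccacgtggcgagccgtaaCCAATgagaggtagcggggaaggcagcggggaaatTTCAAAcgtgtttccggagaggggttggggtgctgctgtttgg
Mki67 promoter, chr7:135716330-135716629, - strand: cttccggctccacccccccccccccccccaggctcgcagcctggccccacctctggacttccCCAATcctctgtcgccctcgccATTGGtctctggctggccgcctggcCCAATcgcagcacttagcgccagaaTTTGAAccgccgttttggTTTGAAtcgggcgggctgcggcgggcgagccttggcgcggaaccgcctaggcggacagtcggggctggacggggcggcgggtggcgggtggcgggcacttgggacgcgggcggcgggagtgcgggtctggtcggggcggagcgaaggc
CCAAT was found in all 11 of the called lower mitosis and replication genes that have a promoter in the table and in 41.1% of all 27025 promoters. TTTGAA was found in 5 of the 11 (45.5%) and in 20.2% of all promoters. Over all 92 called lower genes with a promoter, the shares were 57.6% for CCAAT and 25% for TTTGAA, over the 16 called higher genes 56.2% and 0%, and over the genes tested 42.9% and 14.6%. A match of letters is a description of the sequence and shows no binding.

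**Figure D2:**
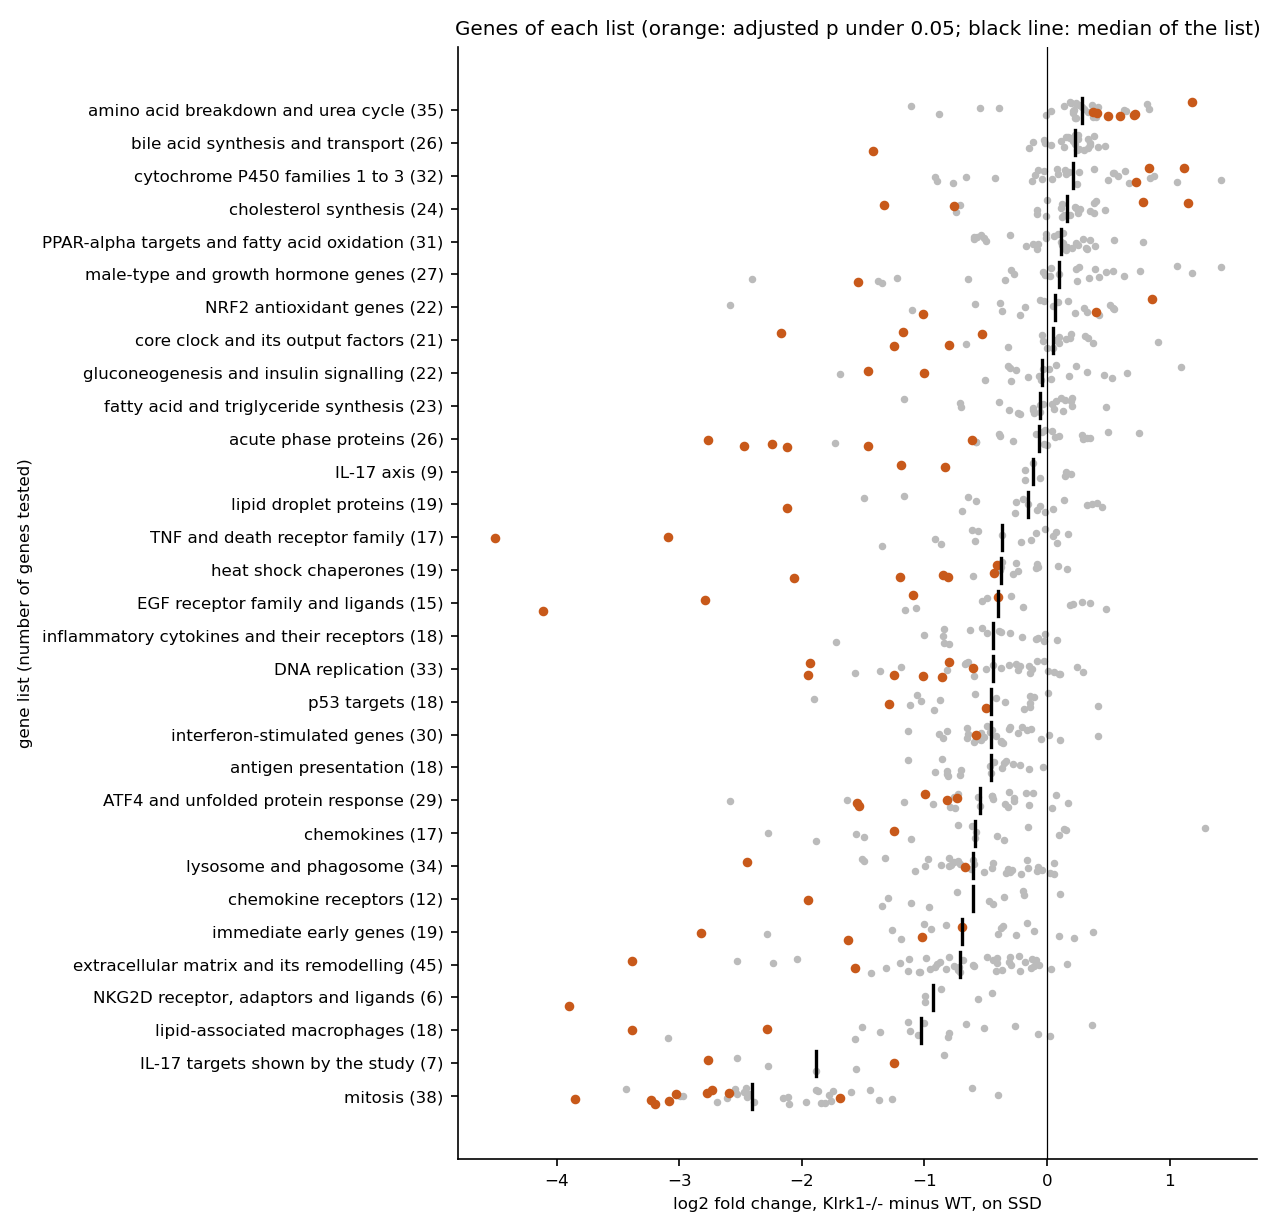
Each row is a gene list, each point the log2 fold change of a tested gene (Klrk1-/- minus WT on SSD), orange where its adjusted p was under 0.05, and the black line is the median of the list. The mitosis list lies lowest (median -2.41), amino acid breakdown and the urea cycle highest (median 0.28).

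Among macrophage genes, a few with large differences passed the test. Lgals3 encodes galectin-3, which lipid-laden macrophages express strongly, and was at 2088, 891, 635, 577 and 718 in WT and 212, 179 and 147 in Klrk1-/- mice (log2 fold change -2.28 ± 0.36 (SE), adjusted p = 0.0132). Mmp12, the macrophage elastase, was at 1060.2, 252, 188, 107 and 158 against 33.8, 22.5 and 14.6 (log2 fold change -3.39 ± 0.61 (SE), adjusted p = 0.0228). Marco, a scavenger receptor of Kupffer cells, was at 267, 133, 168, 515 and 272 against 65.7, 36.1 and 35.1 (log2 fold change -2.45 ± 0.39 (SE), adjusted p = 0.0138). No WT mouse was as low as any Klrk1-/- mouse in these genes, and WT mouse 1 was highest in Lgals3 and Mmp12 but WT mouse 4 in Marco. Without WT mouse 1 the adjusted p was 0.000143 for Lgals3, 0.000824 for Mmp12 and 0.00819 for Marco. All 3 lost the call without Klrk1-/- mouse 2 or 3, with an adjusted p of 0.0759, 0.098 and 0.0785 without Klrk1-/- mouse 3. Without Klrk1-/- mouse 2 it was 0.0599, 0.0908 and 0.0719, without Klrk1-/- mouse 1 it was 0.0637, 0.0772 and 0.0391, and Mmp12 was at 0.0512 without WT mouse 2. Mefv, the gene of the inflammasome protein pyrin, read 52.5, 22.8, 24.7, 21.3 and 14.7 and 1.93, 5.62 and 0 (log2 fold change -3.26 ± 0.61 (SE), adjusted p = 0.0248).

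Of the 18 tested genes of the list for lipid-associated macrophages, 2 were lower and 0 higher at an adjusted p under 0.05. Among all genes 1.68% were lower and 1.22% higher, and the median log2 fold change of the list was -1.02. The lower count ran from 0 without Klrk1-/- mouse 1, 2 or 3 to 6 without WT mouse 1, when 3.26% of all genes were lower. Gpnmb (log2 -3.09, adjusted p = 0.0586) and Trem2 (log2 -1.57, adjusted p = 0.138), which mark lipid-associated macrophages, did not pass the test. The list for lysosome and phagosome had 34 tested genes with a median log2 fold change of -0.60, of which 2 were lower and 0 higher at an adjusted p under 0.05. Without single mice, 0 (Klrk1-/- mouse 2 or 3 left out) to 8 (WT mouse 1 left out) were lower, and on NCD 5 of the 34 were (6.66% of all genes). With edgeR 1 and with DESeq2 10 of the 34 were lower (1.3% and 5.23% of all genes). Lgals3 differed more on SSD than on NCD (interaction log2 -2.57, adjusted p = 0.00824), and so did Mmp12 (-3.52, 0.034).

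Summed marker counts were compared with these genes. The 12 markers of monocytes and recruited macrophages summed to between 2813 and 8495 in WT and between 2364 and 2650.0 in Klrk1-/- mice. The sums did not overlap, 1 of the 10 tested members was lower, and without WT mouse 1 the WT range ended at 4835. For the 9 Kupffer cell markers the sums were between 5573 and 11535 in WT and between 4399 and 5703 in Klrk1-/- mice, which overlap. Marco was the only 1 of the 9 that was lower at an adjusted p under 0.05 (1.68% of all genes). Of the 9, 8 had log2 fold changes below 0, among them Clec4f (log2 -0.26, adjusted p = 0.552), and Cd163 was above 0 (log2 1.04, adjusted p = 0.174). All 7 eosinophil markers together gave between 87.4 and 327 in WT and between 37.7 and 61.8 in Klrk1-/- mice, but Prg2, Epx, Ear1 and Il5ra, which define the cell, had 3 reads or fewer in all 8 mice. Dendritic cell markers gave between 386 and 889 in WT and between 382 and 438 in Klrk1-/- mice. The T cell markers gave between 201 and 314 in WT and between 263 and 294 in Klrk1-/- mice, the NK cell markers between 138 and 294 in WT and between 156 and 192 in Klrk1-/- mice, and the γδ T cell markers between 924 and 1412 in WT and between 1234 and 1505 in Klrk1-/- mice, with Trdv4 and Il23r at 3 reads or fewer in all 8 mice. Hepatocyte markers, which define the labelled tissue, summed to between 1678190 and 2201050 in WT and between 2362050 and 2521340 in Klrk1-/- mice. The hepatocyte sums did not overlap, none of the 10 hepatocyte markers passed the test, and WT mouse 1 was the lowest. The normalized counts of all genes together were also higher in Klrk1-/- mice, 21861121 to 22666465 against 19222033 to 21373610 in WT. Scaling all mice to the same total lowered the median log2 fold change of the hepatocyte markers from 0.302 to 0.187. Adipocyte markers gave between 614 and 2664 in WT and between 204 and 234 in Klrk1-/- mice, with Adipoq, Lep, Retn and Plin1 at 3 reads or fewer in every mouse, so Cidec and 1 other gene made the sum. Stellate cell and myofibroblast markers gave between 10776 and 33110.3 in WT and between 14422 and 17485 in Klrk1-/- mice. Mesothelium markers gave between 6377 and 14453 in WT and between 5985 and 7261 in Klrk1-/- mice, which overlap. All 5 tested ones had log2 fold changes below 0, and Upk3b was called lower (log2 -1.88, adjusted p = 0.0213). Sums also overlapped for neutrophil, cholangiocyte, B and plasma cell, sinusoidal endothelium, erythroid and pancreas acinar markers. No tested member of those lists passed the test. The part of these sums in the gene differences was not tested.

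**Figure D3:**
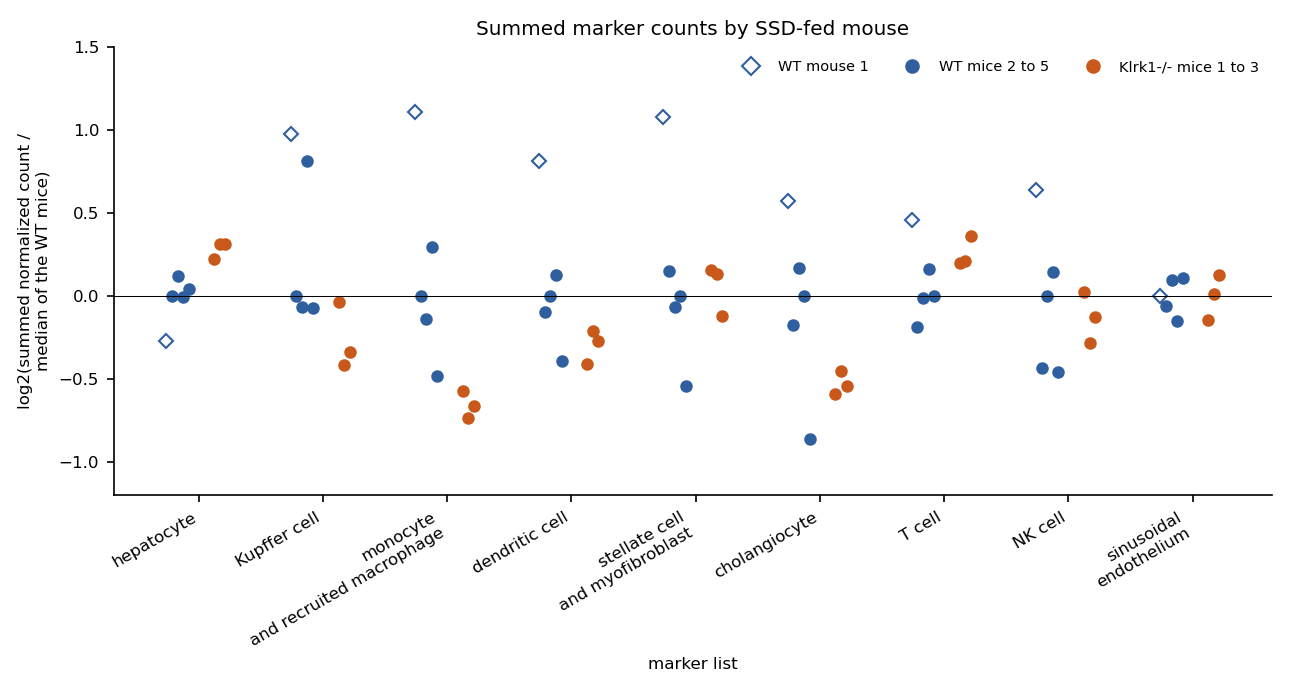
For each marker list the point of every SSD-fed mouse is the log2 of its summed normalized count over the median of the WT mice, with WT mouse 1 as an open diamond. The monocyte sums of the 3 Klrk1-/- mice (2364 to 2650) lie below all WT mice (2813 to 8495).

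Matrix genes were mostly below 0, and 2 of them passed the test. Of the 45 tested genes of extracellular matrix and its remodelling, 43 had log2 fold changes below 0, against 50.2% of all genes. The median was -0.71, and -0.42 without WT mouse 1. At an adjusted p under 0.05, 2 were lower and 0 higher (1.68% and 1.22% of all genes). The 2 that were lower at an adjusted p under 0.05 were Mmp12, given above, and Col15a1, a basement membrane collagen, at 144, 231, 201, 126 and 162 in WT and 42.5, 65.0 and 65.1 in Klrk1-/- mice (log2 fold change -1.56 ± 0.22 (SE), adjusted p = 0.00885). The lowest WT mouse in Col15a1, at 126, lay above all Klrk1-/- mice. The fibrillar collagen genes Col1a1 (log2 -1.44, adjusted p = 0.21), Col1a2 (log2 -1.04, adjusted p = 0.279) and Col3a1 (log2 -1.05, adjusted p = 0.342) and the protease inhibitor gene Timp1 (log2 -2.23, adjusted p = 0.106) did not pass. From 0 (Klrk1-/- mouse 1 left out) to 9 (WT mouse 5 left out) matrix genes were lower without single mice, 2 with edgeR and 9 with DESeq2. The summed counts of the list were 82522, 47333, 50627, 44052 and 37396 in WT and 40256, 38640 and 38268 in Klrk1-/- mice, so they overlapped and WT mouse 1 was highest. On NCD 5 of 39 tested matrix genes were lower and 1 higher (6.66% and 6.41% of all genes).

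Few inflammatory mediators passed the test. Lcn2, an iron-binding protein of the innate response, read 3650.2, 823, 536, 366 and 443 in WT and 125, 93.2 and 120.0 in Klrk1-/- mice (log2 fold change -2.76 ± 0.61 (SE), adjusted p = 0.043). Cxcl10, which attracts activated T cells, was at 264, 185, 168, 181 and 114 against 56, 81.9 and 87.4 (log2 fold change -1.25 ± 0.24 (SE), adjusted p = 0.0293). The neutrophil attractant Cxcl2 read 39.2, 17.7, 17.1, 8.88 and 8.16 and 1.93, 4.02 and 1.71 (adjusted p = 0.0522) and the monocyte attractant Ccl2 190.0, 84.5, 40.9, 40.9 and 56.3 and 24.1, 24.9 and 9.43 (adjusted p = 0.0745). The 2 groups did not overlap in Cxcl2 or Ccl2. Cxcl1 (log2 fold change -1.56 ± 0.41 (SE), adjusted p = 0.0699), Mmp13 (log2 fold change -2.53 ± 0.61 (SE), adjusted p = 0.0573), Il1a (log2 fold change -0.80 ± 0.19 (SE), adjusted p = 0.0575), Il1b (log2 fold change -0.84 ± 0.28 (SE), adjusted p = 0.124), Il33 (log2 fold change -1.0 ± 0.28 (SE), adjusted p = 0.0812), Bmp8b (log2 fold change -1.2 ± 0.43 (SE), adjusted p = 0.139), Tgfb2 (log2 fold change -0.98 ± 0.46 (SE), adjusted p = 0.236) and Tgfb3 (log2 fold change -0.80 ± 0.33 (SE), adjusted p = 0.186) did not pass. Of the 7 IL-17 targets among these genes (Ccl2, Cxcl1, Cxcl2, Cxcl10, Lcn2, Mmp13 and Il1b), limma gave 2, edgeR 1 and DESeq2 6 lower at an adjusted p under 0.05, against 1.68%, 1.3% and 5.23% of all genes. By limma 0 were lower without WT mouse 2 or 3 or any Klrk1-/- mouse, 1 without WT mouse 4 and 5 without WT mouse 1 or 5. By DESeq2 the adjusted p was 0.00541 for Cxcl2, 0.00319 for Ccl2, 0.000864 for Cxcl1 and 0.102 for Il1b. The genes named here were picked by the study on these same mice, so their direction is not independent evidence.

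For chemokines, 1 of 17 tested genes was lower and 0 higher at an adjusted p under 0.05, with a median log2 fold change of -0.58. Leaving out 1 mouse moved the count of lower genes between 0 (without WT mouse 2, 3 or 4 or Klrk1-/- mouse 1, 2 or 3) and 5 (without WT mouse 5). Of the 17, 8 had an unadjusted p under 0.05, against 22.9% of all genes tested, and edgeR called 1 and DESeq2 6 lower, against 1.3% and 5.23% of all genes. Of the 18 tested genes of the list for inflammatory cytokines and their receptors, 0 were lower and 0 higher at an adjusted p under 0.05, and the median log2 fold change was -0.44. The lower count ran from 0 without WT mouse 2, 3 or 4 or Klrk1-/- mouse 1, 2 or 3 to 4 without WT mouse 1. Of these 18, 8 had an unadjusted p under 0.05 (22.9% of all genes), and edgeR called 0 and DESeq2 6 lower. The chemokine receptor gene Cxcr4, which keeps leukocytes at CXCL12-rich sites, was at 155, 43.9, 64.7, 64 and 56.3 against 14.5, 21.7 and 16.3 (log2 fold change -1.95 ± 0.36 (SE), adjusted p = 0.024). The list for IL-17 axis had 9 tested genes with a median log2 fold change of -0.11, which turned to 0.028 without WT mouse 1. At an adjusted p under 0.05, 2 of the 9 were lower and 0 higher (1.68% and 1.22% of all genes). Cebpd (log2 fold change -1.19 ± 0.25 (SE), adjusted p = 0.0347) and Cebpb (log2 fold change -0.83 ± 0.15 (SE), adjusted p = 0.0213), transcription factors that act downstream of the IL-17 receptor and of interleukin-6, were lower, and Il17ra (log2 -0.18, adjusted p = 0.247) and Nfkbiz (log2 -0.17, adjusted p = 0.427) did not pass. Without single mice, 0 (Klrk1-/- mouse 1 or 3 left out) to 2 (WT mouse 1 or 5 left out) were lower. For interferon-stimulated genes, 1 of 30 tested genes was lower and 0 higher at an adjusted p under 0.05, with a median log2 fold change of -0.46. Of the 30, 12 had an unadjusted p under 0.05 (22.9% of all genes), and edgeR called 0 lower and DESeq2 5 lower and 1 higher. Of the 18 tested genes of the list for antigen presentation, 0 were lower and 0 higher at an adjusted p under 0.05, and the median log2 fold change was -0.46. Of the antigen presentation genes 12 had an unadjusted p under 0.05 (22.9% of all genes), and edgeR called 0 and DESeq2 4 lower. Leaving out single mice gave up to 3 lower interferon-stimulated genes (without WT mouse 1) and 5 lower antigen presentation genes (without WT mouse 5).

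Acute phase genes were split. Orm2, an orosomucoid that hepatocytes secrete in inflammation, was at 749, 809, 663, 469.9 and 575 in WT and 155, 153 and 104 in Klrk1-/- mice (log2 fold change -2.24 ± 0.19 (SE), adjusted p = 0.000395). The serum amyloid gene Saa1 was at 3039.7, 3284, 2616, 1094 and 1873 against 537, 499.5 and 494 (log2 fold change -2.12 ± 0.30 (SE), adjusted p = 0.00885). Its neighbours Saa2 (log2 fold change -2.47 ± 0.34 (SE), adjusted p = 0.00752) and Saa3 (log2 fold change -1.46 ± 0.26 (SE), adjusted p = 0.0213) were lower as well, and WT mouse 4 had the lowest WT value of each. They lie side by side on chromosome 7 and share sequence, so reads may be split between them. Their close relative Saa4 (log2 0.00, adjusted p = 0.992) and the fibrinogen gene Fgb (log2 0.33, adjusted p = 0.183) did not pass. The list for acute phase proteins had 26 tested genes with a median log2 fold change of -0.07. At an adjusted p under 0.05, 6 were lower and 0 higher (1.68% and 1.22% of all genes). Leaving out 1 mouse moved the count of lower genes between 1 (without Klrk1-/- mouse 1) and 6 (without WT mouse 1 or 5). On NCD 7 of the 26 were lower and 0 higher (6.66% and 6.41% of all genes). Saa1 and Saa2 were lower in Klrk1-/- mice on NCD too, with log2 fold changes of -2.05 (adjusted p = 0.00241) and -2.19 (0.00708).

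Among the tested immediate early genes, Atf3 had the largest log2 fold change. Atf3, a stress-induced transcription factor, was at 601, 204, 202, 239.8 and 209 in WT and 48.3, 36.9 and 26.6 in Klrk1-/- mice (log2 fold change -2.82 ± 0.35 (SE), adjusted p = 0.00497). WT mouse 1 was far above the other WT mice, and without it the adjusted p was 6.83e-05. Fos read 108, 87, 97.1, 74.6 and 62.1 and 20.3, 45 and 20.6 (log2 fold change -1.62 ± 0.28 (SE), adjusted p = 0.0197), and Jun, its partner in AP-1, 1326, 694, 609, 958 and 679 and 476, 403 and 339 (log2 fold change -1.02 ± 0.23 (SE), adjusted p = 0.0474). Chac1, a glutathione-degrading target of ATF4, was at 568, 492, 483, 421 and 603 against 130.4, 249.8 and 165 (log2 fold change -1.53 ± 0.19 (SE), adjusted p = 0.00547), and Phgdh, the first enzyme of serine synthesis, at 328, 178, 107, 169.7 and 154 against 50.2, 63.4 and 65.1 (log2 fold change -1.55 ± 0.29 (SE), adjusted p = 0.0256). For immediate early genes, 4 of 19 tested genes were lower and 0 higher at an adjusted p under 0.05, with a median log2 fold change of -0.69. Single mice left out gave 1 (WT mouse 3 or Klrk1-/- mouse 1 or 3) to 6 (WT mouse 1) lower immediate early genes. Of the 29 tested genes of the list for ATF4 and unfolded protein response, 5 were lower and 0 higher at an adjusted p under 0.05. Among all genes 1.68% were lower and 1.22% higher, and the median log2 fold change of the list was -0.55. The lower count ran from 1 without WT mouse 2 or Klrk1-/- mouse 1 or 3 to 13 without WT mouse 1. Without that WT mouse 3.26% of all genes were lower. On NCD 11 of 27 tested members were lower in Klrk1-/- mice and 1 higher (6.66% and 6.41% of all genes), with a median of -0.43. Ddit3 enters that list under 2 identifiers, so 1 locus counts as 2 of the 29. Trp53inp1, a p53 target, was at 3319, 2246, 2177, 2317 and 2184 against 932, 808 and 1285 (log2 fold change -1.29 ± 0.17 (SE), adjusted p = 0.0075). Hmox1, which breaks down haem, read 1895, 932, 817, 981 and 908 and 509.9, 532 and 518 (log2 fold change -1.01 ± 0.23 (SE), adjusted p = 0.0461). Sprr1a, a cornified envelope gene induced in stressed epithelia, was at 111, 65.9, 46.6, 24 and 45.7 against 3.86, 0.803 and 0 (log2 fold change -4.68 ± 0.57 (SE), adjusted p = 0.00479).

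Single genes of lipid and sterol metabolism differed. Cidec, a protein of lipid droplets that lets them fuse and grow, was at 1155, 1407, 952, 608 and 519 in WT and 231, 171 and 197 in Klrk1-/- mice (log2 fold change -2.12 ± 0.29 (SE), adjusted p = 0.00833). The highest Klrk1-/- mouse, at 231, was below the lowest WT mouse, at 519. Its genotype difference was absent from the calls on NCD (0.33, adjusted p = 0.635) and more negative on SSD (interaction log2 -2.45, adjusted p = 0.0485). The fatty acid transporter Cd36 was at 2747, 2672, 1674, 871 and 1081 against 661, 477 and 621 but did not pass (log2 fold change -1.49 ± 0.36 (SE), adjusted p = 0.0559). The list for lipid droplet proteins had 19 tested genes with a median log2 fold change of -0.15. At an adjusted p under 0.05, 1 was lower and 0 higher (1.68% and 1.22% of all genes). Without single mice, 1 (WT mouse 2 or 3 or Klrk1-/- mouse 1, 2 or 3 left out) to 4 (WT mouse 1 left out) were lower. For fatty acid and triglyceride synthesis, 0 of 23 tested genes were lower and 0 higher at an adjusted p under 0.05, with a median log2 fold change of -0.06. Of the 31 tested genes of the list for PPAR-alpha targets and fatty acid oxidation, 0 were lower and 0 higher at an adjusted p under 0.05, and the median log2 fold change was 0.11. An unadjusted p under 0.05 was found in 3 of the 23 and 7 of the 31, with 22.9% among all genes tested, and edgeR called 0 in both, DESeq2 1 and 2 lower. Leaving out WT mouse 1 gave 1 lower gene in each of the last 2 lists.

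In cholesterol synthesis, Dhcr7, the enzyme of the last step, was lower at 374, 319, 359, 277 and 274 against 94.6, 124 and 171 (log2 fold change -1.33 ± 0.19 (SE), adjusted p = 0.00838), and so was the earlier enzyme Sc5d (log2 fold change -0.76 ± 0.11 (SE), adjusted p = 0.0108). Insig1, a brake on the synthesis that is itself induced by its transcription factor SREBP, was higher at 1040.3, 1859.5, 1448, 1622 and 1753 against 2355, 2848 and 2643 (log2 fold change 0.78 ± 0.17 (SE), adjusted p = 0.0398). The list for cholesterol synthesis had 24 tested genes with a median log2 fold change of 0.16. At an adjusted p under 0.05, 2 were lower and 2 higher (1.68% and 1.22% of all genes). Leaving out 1 mouse moved the count of higher genes between 0 (without WT mouse 3 or 4 or Klrk1-/- mouse 1, 2 or 3) and 2 (without WT mouse 1). Cyp7a1, the rate-limiting enzyme of bile acid synthesis, was at 1251, 665, 1118, 1073 and 1106 in WT and 285, 489 and 395 in Klrk1-/- mice (log2 fold change -1.42 ± 0.22 (SE), adjusted p = 0.0114). The ileal type bile acid transporter gene Slc10a2 was at 771, 512, 679.5, 490.4 and 611 against 212, 214 and 237 (log2 fold change -1.45 ± 0.15 (SE), adjusted p = 0.00128). Both were lower on NCD as well, by log2 fold changes of -1.49 (adjusted p = 0.0185) and -1.07 (0.00108). Slc10a2 is not on the list for bile acid synthesis and transport. On that list 1 of 26 tested genes was lower and 0 higher at an adjusted p under 0.05 (1.68% and 1.22% of all genes). The median log2 fold change of the list was 0.23. That 1 gene, Cyp7a1, lost the call without Klrk1-/- mouse 1 (adjusted p = 0.0703) or 3 (0.0569). Pfkfb3, an enzyme that drives glycolysis, read 255, 209.5, 475, 336 and 305 against 92.7, 119.7 and 121 (log2 fold change -1.46 ± 0.23 (SE), adjusted p = 0.0135).

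Among genes of amino acid breakdown, 7 of 35 were higher in Klrk1-/- mice, against 1.22% of all genes at an adjusted p under 0.05. Hal, histidase, was at 2950.1, 4066, 4270.2, 2959 and 3732 in WT and 7966, 6927 and 9498 in Klrk1-/- mice (log2 fold change 1.18 ± 0.15 (SE), adjusted p = 0.00588). Gls2, the liver glutaminase, read 2912, 2453, 2514, 2438 and 2662 and 4059, 3931 and 4771 (log2 fold change 0.71 ± 0.09 (SE), adjusted p = 0.00666). Of the 35 tested genes of the list for amino acid breakdown and urea cycle, 0 were lower and 7 higher at an adjusted p under 0.05, and the median log2 fold change was 0.28. The 7 included Hal, Gls2, Hpd (log2 0.72, adjusted p = 0.023) and Fah (log2 0.41, adjusted p = 0.0488) of tyrosine breakdown and Nags (log2 0.49, adjusted p = 0.0434), and of the 7 only Hal passed the 2-fold limit. The higher count ran from 2 without Klrk1-/- mouse 1, 2 or 3 to 13 without WT mouse 1, when 2.24% of all genes were higher. Log2 fold changes were above 0 in 30 of the 35 members, with 49.8% above 0 among all genes, and scaling to the same total lowered the median from 0.28 to 0.17. The hepatocyte markers, which share Cps1 and Ass1 with this list, were above 0 in 9 of 10 members. Their median was 0.30 on the log2 scale, and 0.19 with all mice scaled to the same total. Before that scaling, their sums were higher in every Klrk1-/- mouse than in any WT mouse. Their part in the difference of this list was not tested. Cytochrome P450 genes were less uniform. The list for cytochrome P450 families 1 to 3 had 32 tested genes with a median log2 fold change of 0.21. That median was 0.125 without WT mouse 1 and 0.096 with all mice scaled to the same total. At an adjusted p under 0.05, 0 were lower and 3 higher (1.68% and 1.22% of all genes). Cyp3a59 (log2 fold change 1.12 ± 0.25 (SE), adjusted p = 0.044), Cyp3a25 (log2 fold change 0.84 ± 0.16 (SE), adjusted p = 0.0273) and Cyp2a5 (log2 fold change 0.73 ± 0.15 (SE), adjusted p = 0.033) were higher, and reads of such families can be split between copies. Without single mice, 0 (WT mouse 3 or Klrk1-/- mouse 1 or 3 left out) to 4 (WT mouse 1 left out, with 2.24% of all genes) were higher.

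Chaperones and clock-related genes were lower in part. Hspa1a, which encodes the inducible chaperone HSP70, read 83.7, 76, 52.3, 72.8 and 76.7 against 10.6, 26.5 and 15.4 (log2 fold change -2.06 ± 0.28 (SE), adjusted p = 0.00752). Its near-identical neighbour Hspa1b read 658, 707, 667, 653 and 863 against 227, 437 and 292 (log2 fold change -1.2 ± 0.18 (SE), adjusted p = 0.0121), and the counting may split reads between them. WT mouse 5 was highest in Hspa1b, and Klrk1-/- mouse 2 was the highest Klrk1-/- mouse in both. Hsp90aa1 was at 3040.4, 2775, 3112, 2973 and 3267 against 1439, 1658 and 1990.2 (log2 fold change -0.85 ± 0.11 (SE), adjusted p = 0.00497). For heat shock chaperones, 6 of 19 tested genes were lower and 0 higher at an adjusted p under 0.05 (1.68% and 1.22% of all genes), with a median log2 fold change of -0.38. Leaving out 1 mouse moved the count of lower genes between 2 (without Klrk1-/- mouse 1 or 3) and 7 (without WT mouse 1). On NCD 14 of the 19 were lower in Klrk1-/- mice (6.66% of all genes), and Hspa1b differed less on SSD than on NCD (interaction log2 1.22, adjusted p = 0.0277). Noct, nocturnin, a phosphatase whose RNA follows the day, was at 701, 469.7, 486, 495 and 545 in WT and 102, 130.1 and 123 in Klrk1-/- mice (log2 fold change -2.17 ± 0.14 (SE), adjusted p = 0.000145). Per1, a core clock repressor, read 815, 787, 991, 1367 and 1177 and 334, 420.0 and 541 (log2 fold change -1.24 ± 0.20 (SE), adjusted p = 0.0148), and Wee1, a mitosis-delaying kinase under clock control, 97.6, 88.7, 63.8, 75.5 and 59.6 and 30.9, 32.9 and 35.1 (log2 fold change -1.18 ± 0.20 (SE), adjusted p = 0.0173). Of the 21 tested genes of the list for core clock and its output factors, 5 were lower and 0 higher at an adjusted p under 0.05. Among all genes 1.68% were lower and 1.22% higher. The median log2 fold change of the list was 0.05, but -0.04 without WT mouse 1 and -0.07 with all mice scaled to the same total. The lower count was 1 without Klrk1-/- mouse 1 or 2, 2 without Klrk1-/- mouse 3, and 4 or 5 without any single WT mouse. On NCD 5 of the 21 were lower and 2 higher (6.66% and 6.41% of all genes). The activators Arntl (log2 0.05, adjusted p = 0.852) and Clock (log2 0.00, adjusted p = 0.988) did not pass. The time of day at which the livers were taken is not given in the sources used here.

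In each of the remaining lists 1 to 3 genes passed the test, with 1.68% lower and 1.22% higher among all genes. Among p53 targets, 2 of 18 were lower, Trp53inp1 and the cyclin G1 gene Ccng1 (log2 -0.49, adjusted p = 0.043), with a median of -0.45 and 0 (without Klrk1-/- mouse 1) to 5 (without WT mouse 1) lower when single mice were left out. Of 22 NRF2 antioxidant genes, Hmox1 was lower and 2 were higher, the thioredoxin reductase gene Txnrd1 (log2 0.40, adjusted p = 0.0376) and Osgin1 (log2 0.86, adjusted p = 0.0398). The count of higher NRF2 genes ran from 0 without WT mouse 2 or 3 or any Klrk1-/- mouse to 5 without WT mouse 1. Among 12 chemokine receptors Cxcr4 alone was lower, and no receptor was without WT mouse 3 or any Klrk1-/- mouse. Among 27 male-type and growth hormone genes Mup2, a major urinary protein gene, was lower (log2 -1.54, adjusted p = 0.0347), which rose to 6 genes without WT mouse 1 and fell to 0 without WT mouse 2, 3 or 4 or any Klrk1-/- mouse. In gluconeogenesis and insulin signalling, 2 of 22 were lower, and 0 were when any single Klrk1-/- mouse was left out. On NCD 7 of the 22 were lower and 3 higher (6.66% and 6.41% of all genes).

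The lists were also counted with the other tools, which called different shares of all genes. At an adjusted p under 0.05, edgeR had 1.3% of all genes lower and 1.07% higher, and DESeq2 5.23% lower and 4.08% higher. Lower genes numbered 5 with edgeR and 16 with DESeq2 among the ATF4 genes, 6 and 11 in DNA replication, 4 and 10 among acute phase proteins and 3 and 9 among heat shock chaperones. They numbered 3 and 8 among immediate early genes, 2 and 8 among p53 targets, 3 and 5 in the EGF receptor family, 2 and 4 among lipid-associated macrophage genes, 1 and 5 among lipid droplet proteins and 4 and 5 in the clock list. Higher genes numbered 6 with edgeR and 13 with DESeq2 in amino acid breakdown, 3 and 5 among the cytochrome P450 genes, 2 and 5 among the NRF2 genes and 0 and 3 among acute phase proteins.

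Several genes of the 12 largest rises were near 0 in WT mice. The predicted gene Gm20075, inside Sv2c on the same strand, was at 0, 3.38, 0.952, 0 and 1.63 in WT and 80.2, 53.8 and 72 in Klrk1-/- mice (adjusted p = 0.0021), and Gm9008 at 1.33, 5.07, 0.952, 0 and 4.08 against 81.1, 41 and 71.1 (0.0075). Dab1, an adaptor of reelin signalling, was at 17.9, 4.22, 7.61, 7.99 and 5.72 against 74.4, 104 and 141 (log2 fold change 3.57 ± 0.41 (SE), adjusted p = 0.00293). Gdpd3, a lysophospholipase D, was at 20.6, 31.3, 19, 27.5 and 21.2 against 229, 279 and 492 (log2 fold change 3.69 ± 0.26 (SE), adjusted p = 0.000145). Rilpl1 (chromosome 5 of GRCm39, 124631143 to 124669454), which acts at the primary cilium and lysosome, had the lowest adjusted p of all genes, at 101, 85.3, 58.1, 69.3 and 79.2 against 950.3, 900.2 and 902 (log2 fold change 3.55 ± 0.16 (SE), adjusted p = 6.93e-06).

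The Rilpl1 values of the NCD-fed Klrk1-/- mice were far apart, 591, 101, 47.3 and 605, with 57.9, 63.4, 45.6 and 56.3 in the NCD-fed WT mice, so 2 of the 4 lay at or near the WT values. Gdpd3 also spread widely there, at 326, 48.5, 16.2 and 522 in Klrk1-/- mice and 8.44, 13.1, 7.82 and 19.9 in WT mice. The reverse was seen in Tceanc2, where Klrk1-/- mice on SSD were at 12.6, 124 and 19.7 and WT mice at 232, 215, 229, 231 and 208 (log2 fold change -2.77 ± 0.56 (SE), adjusted p = 0.0315). Klrk1-/- mice of 1 diet group thus differed from each other in these genes by more than the WT mice did. Tymp, thymidine phosphorylase, and Sco2, a copper chaperone of cytochrome oxidase, overlap on the same strand of chromosome 15 and cannot be told apart where they share sequence. Tymp read 2159, 2931, 2714, 2989 and 2900.1 against 8551, 7242 and 6926 (log2 fold change 1.47 ± 0.12 (SE), adjusted p = 0.000336). For Sco2 the values were 2062, 2713, 2344, 2686 and 2471 against 6768, 6163 and 5339 (log2 fold change 1.31 ± 0.11 (SE), adjusted p = 0.000395). Alad, an enzyme of haem synthesis, was at 3039.7, 3762, 3541, 3579 and 3189 against 8209, 8459 and 7510.1 (log2 fold change 1.24 ± 0.09 (SE), adjusted p = 0.000178). Tbx3, a transcription factor of the liver lobule, was at 201, 408, 529, 402 and 288 against 938, 713 and 1021 (log2 fold change 1.34 ± 0.27 (SE), adjusted p = 0.0315), and Ptgds, a prostaglandin D2 synthase, at 57.1, 52.4, 91.4, 96.8 and 50.6 against 164, 211 and 148 (log2 fold change 1.35 ± 0.25 (SE), adjusted p = 0.023).

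The genotype difference on NCD was then set beside that on SSD, which uses other mice. On NCD 219 of 12845 genes (1.7%) were called, 109 higher (0.849%) and 110 lower (0.856%), an even split that the SSD comparison did not show. Of the 151 calls on SSD, 32, all lower in Klrk1-/- mice, were below the minimum mean on NCD and could not be called there. Of the 119 tested on NCD, 39 had an adjusted p under 0.05 there (13.1% of all genes), and 89 had the same sign. Both diets called 28 genes, which is 18.5% of the calls on SSD and 12.8% of those on NCD, and all 28 differed in the same direction, 20 lower and 8 higher. They included Klrk1, Noct, Paox, Tdg, Slc10a2, Mrgpre, Hspa1a, Hspa1b, Saa1, Saa2, Col15a1, Cyp7a1, Camk2b, Rcan1, Slpi, Slamf9, Gnal, Tceanc2 and Rgs1 among the lower genes and Gdpd3, Alad, Tymp, Sco2, Gm20075, Dab1, Gm9008 and Gm43162 among the higher. Paox, a polyamine oxidase, was at 192, 247, 253, 232 and 229 in WT and 63.7, 69.1 and 81.4 in Klrk1-/- mice on SSD and at 773, 834, 815 and 771 and 89.6, 89.6, 85.8 and 71.3 on NCD. Its difference was larger on NCD (interaction log2 1.56, adjusted p = 0.00025). Tdg, a DNA glycosylase, was at 91.7, 89.6, 89.5, 68.4 and 80.8 against 21.2, 20.9 and 27.4 on SSD and 74.8, 79.5, 89.9 and 69.5 against 21.8, 22.4, 19.9 and 24.6 on NCD. The genotypes did not overlap in Paox or Tdg on either diet.

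**Figure D4:**
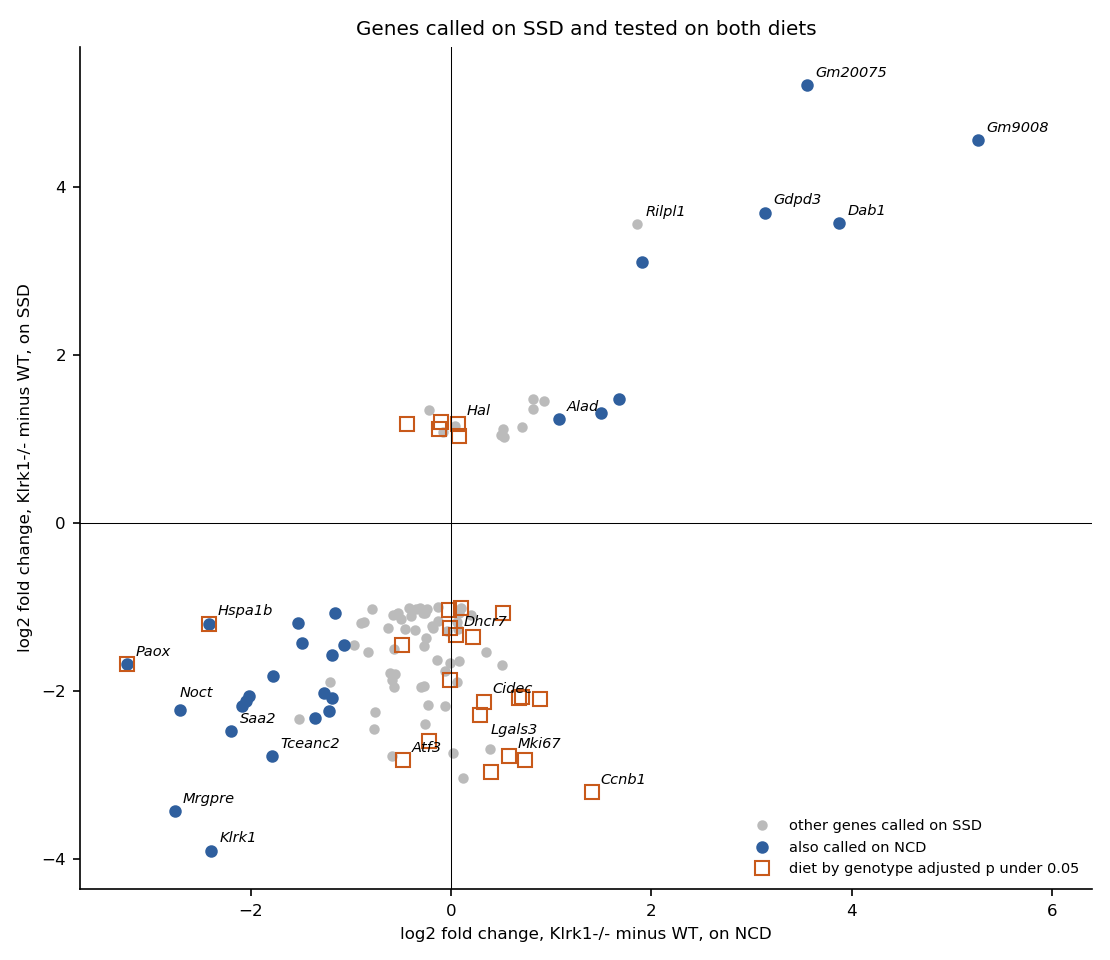
Each point is a gene called on SSD and tested on both diets (119 genes), with its log2 fold change (Klrk1-/- minus WT) on NCD across and on SSD up. Blue points were also called on NCD (28 genes), and open squares had an adjusted p under 0.05 for the diet by genotype interaction.

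In a model of all 16 mice, 70 of 13068 genes (0.536%) were called for the interaction of diet and genotype, 57 (0.436%) more negative and 13 (0.0995%) more positive on SSD. Of the 149 genes called on SSD that entered this model, 31 (20.8%) had an interaction adjusted p under 0.05, against 0.88% of all genes. The interaction uses the same SSD mice as the calls, so genes chosen for a large difference there are favoured. Beside the genes given above, the difference was more negative on SSD for Atf3 (-2.35, adjusted p = 0.0166) and Dhcr7 (-1.37, 0.00963), and more positive for Hal (1.11, 0.0107).

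Called genes lay on all autosomes and the X chromosome, with 17 of 815 tested genes on chromosome 4 (2.09%) and 16 of 1022 on chromosome 7 (1.57%). Within 10 Mb of Klrk1 on chromosome 6, 2 of 133 tested genes (1.5%) were called, Klrk1 and Rad51ap1, close to the 1.15% of all genes. Klrd1, the nearest tested gene, encodes the NK receptor subunit CD94 and had a log2 fold change of 0.06 (adjusted p = 0.953).

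The NF-κB consensus was searched in the same promoters, since several lower genes respond to this factor. It was found in 7 of 92 called lower genes (7.61%), 1 of 16 called higher genes (6.25%), 6.21% of the genes tested and 5.14% of all promoters, so the shares lay close together. Ubd, a ubiquitin-like gene induced by TNF and interferon, had the largest fall of the 7, and capitals mark its match.
Ubd promoter, chr17:37193642-37193941 of GRCm38.p6, + strand: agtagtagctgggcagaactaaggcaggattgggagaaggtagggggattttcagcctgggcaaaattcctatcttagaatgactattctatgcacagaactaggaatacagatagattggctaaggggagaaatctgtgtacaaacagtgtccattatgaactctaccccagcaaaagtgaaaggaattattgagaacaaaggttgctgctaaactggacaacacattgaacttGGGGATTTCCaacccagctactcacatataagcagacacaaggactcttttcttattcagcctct
Ubd was lower in Klrk1-/- mice at 504, 95.5, 82.8, 91.5 and 60.4 against 12.6, 16.1 and 18.9 (log2 fold change -2.83 ± 0.57 (SE), adjusted p = 0.0315).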

How the data were processed

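RNA of whole liver was sequenced as single reads, 1 library per mouse. The sources disagree on the kit (mRNA in the labels, total RNA in the methods). Per the methods, the authors used FastQC, STAR on GRCm39 and FeatureCounts on GENCODE genes. The deposited values are a signal, normalized counts: reads divided by 1 factor per sample, whose origin is not given in the sources used here. Whole reads were recovered for 100% of values within a tolerance of 0.01, apart from 1 NCD library whose factor is so near 1 that rounding would look alike. The authors' columns of fold changes and p-values were not used. limma 3.58.1 in R 4.3.3 (trend, Benjamini-Hochberg adjustment) was run on log2(normalized count + 1) for genes with a mean of at least 10, over the mice of each comparison, with the authors' DESeq2 kept as an alternative on recovered reads, since the deposited values are normalized. edgeR 4.0.16 (quasi-likelihood) and DESeq2 1.42.0 on these reads, another pseudocount, minimum mean and fold limit, other scalings, a replicate block and leaving out each mouse were alternatives. On simulated data for this comparison (13116 genes), limma called 100% of 99 genes changed 4-fold and 81% of 100 changed 2.5-fold. The simulation gave every gene the same spread between mice and no mouse that stood apart, so these shares need not hold for the real mice. Gpnmb, at log2 -3.09, did not pass by limma (adjusted p = 0.0586). Replicate numbers were used to pair mice only in the block alternative. Intervals and the floor of 3 reads cover counting error only.

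Genes named were Klrk1, the 12 largest rises and falls among called genes without overlap of the groups, called genes on a list, the 2 members with the lowest p of each list described, genes the study shows for this comparison, called genes within 10 Mb of Klrk1 and genes called on both diets. Other genes, named for their role or position, and the NCD values shown were picked after their values were seen. The comparison, gene lists and tests were chosen with earlier results of these data known. Promoters are RefSeq sequences of GRCm38.p6, matched by symbol for 92 of 127 lower and 16 of 24 higher genes. Some genes that the rule names are not reported here.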

Additional observations from a re-analysis of the deposited data

Results flagged for a closer look

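In single mice, some values lay far from the rest of their group. Such a gap is flagged by chance in about 1 of 20 groups, and 146 genes were looked at. On SSD, WT mouse 1 was far above the other WT mice in Atf3 (601 normalized counts), Trp53inp1 (3319), Hmox1 (1895) and Il1rn (453), the antagonist of interleukin-1. It is also the mouse whose reads differed most from the other WT mice. WT mouse 5 was high in Hspa1b (863), WT mouse 4 in Osgin1 (12964), an NRF2 target, and WT mouse 2 was low in Cyp7a1 (665). On NCD, Klrk1-/- mouse 3 was high in Sco2 (7641). Klrk1-/- mouse 1 was low in Col15a1 (94.2), mouse 2 in Gm43162 (8.71) and Slpi (14.9), and mouse 4 in Gm9008 (40.6), while WT mouse 3 was high in Gm20075 (5.21).

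The genotype difference differed between the diets by the interaction test of limma (adjusted p under 0.05, more than 2-fold) for 20 named genes, given here as the log2 difference on SSD minus that on NCD. It was more negative on SSD for the mitosis and replication genes Ccnb1 (-4.61), Ckap2l (-4.25), Mki67 (-3.36), Top2a (-2.37), Mcm6 (-1.24) and Mcm3 (-1.11). The same held for the injury and stress genes Sprr1a (-5.11), Areg (-4.29) and Atf3 (-2.35) and for the macrophage genes Mmp12 (-3.52) and Lgals3 (-2.57). Among lipid genes it was more negative for Cidec (-2.45), Dhcr7 (-1.37), the lipin genes Lpin1 (-1.93) and Lpin2 (-1.03) of triglyceride synthesis, and the thioesterase gene Acot2 (-1.62). Ighm, the immunoglobulin M heavy chain, had -1.61. It was more positive on SSD for Paox (1.56), Hspa1b (1.22) and Hal (1.11).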

How the results depend on the processing

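The comparison rests on 3 Klrk1-/- and 5 WT mice, each with at least 22458502 reads on genes, and genes with few reads (Areg, Ttk, Sprr1a) have wide counting intervals. The number of genes called on SSD, 151, was 96 with a pseudocount of 10, 85 with a minimum mean of 50, 365 with DESeq2, 293 with all 16 mice in one model, 279 with a fold limit of 1.5 and 381 with none. Without a minimum mean it was 166, with the same total per sample 186, after quantile normalization 109 and with edgeR 127. Of the 151, edgeR also called 125 and DESeq2 148. Leaving out single mice gave 35 to 251. More genes were lower than higher under all of these settings. The 219 calls on NCD became 744 with a fold limit of 1.5 and 1679 with none, and 132 to 258 without single mice. The 70 calls of the interaction became 196 with DESeq2, 111 with a fold limit of 1.5, 115 with none, and 28 to 130 without single mice. The causes were not tested. With the replicate number as a block the counts were 326 on SSD, 277 on NCD and 35 for the interaction. On SSD only numbers 1, 2 and 3 occur in both genotypes, so only WT mice 1, 2 and 3 can be paired there. The 326 thus does not rest on the same comparison of mice as the 151. Without a block, leaving out WT mouse 5 alone gave 251. The effect of the block apart from that of the mice used was not tested. Deviations of mice with the same number correlated at 0.15, -0.02 and 0.24 on SSD, against -0.184 to 0.139 for unlike numbers. The pairs of number 1 and of number 3 were thus above all unlike pairs. Mouse 2 of neither genotype correlated best with its own number. On NCD the same numbers gave 0.021, -0.096 and 0.083, against -0.201 to 0.216 for unlike numbers. Whether the numbers pair mice was not tested.

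Over 146 named genes, 2340 alternative values kept direction and side of the threshold, 298 no longer passed it, 88 newly passed it and 3 reversed. All 3 were the elastase gene Cela1, which was not called (log2 -0.041), at 0.018 after quantile normalization and from -0.075 (without WT mouse 4) to 0.022 (without WT mouse 1) when single mice were left out, with 0.003 without Klrk1-/- mouse 1.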
